A study of Homo sapiens with 12 samples.

Results

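Serpins are serine protease inhibitors, and 9 of their genes were described in DU145 cells with and without RAC1: SERPINA1, SERPINA3, SERPINB1, SERPINB2, SERPINB5, SERPINB6, SERPINB8, SERPINB9 and SERPINE2. They were chosen by gene symbol from a table of 56832 genes, with the expression differences between knockout and RAC1-positive cells already known. Their values in that contrast are therefore a description without a test. No threshold is stated for the choice. Levels are in TPM, an abundance scaled by transcript length and library total. Of the 9 genes, 7 reached a mean of 1 TPM with or without RAC1, and SERPINA3 and SERPINB2 were listed at 0 in all 12 libraries. SERPINB5 passed that filter through the knockout lines alone.

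DU145 is a human prostate carcinoma cell line, and RAC1 encodes a small GTPase that controls actin and cell adhesion. RNA was sequenced from 6 lines grown in RPMI with 10% FBS, with 2 libraries a line, and each replicate number was also a batch in the labels. The 3 RAC1-positive lines were parental DU145 and 2 clones that received Cas9 with the non-targeting guide sgNTC_1 (sgNTC clones 1 and 2). The 3 knockout lines were sgRAC1 clone 1, made with the guide sgRAC1_1, and sgRAC1 clones 2 and 3, made with sgRAC1_2. Each clone was expanded from a single cell, and the guide sgRAC1_1 is represented by 1 clone, so guide and clone cannot be told apart. The 2 libraries of a line share that line, so tests between lines of 1 genotype measure only the spread between libraries.

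RAC1 itself ranged from 36.5 to 59.2 TPM over the 6 knockout libraries and from 149 to 202 TPM over the other 6, without overlap. The library of sgNTC clone 2, replicate 1, stood apart, with 13608 genes above 0 against 20470 to 25156 in the others. Several values that it moves, though not all, are also given without it. The files hold TPM and no counts, so sequencing depth is unknown. Epithelial markers summed to 440 to 846 TPM in the knockout libraries and 325 to 866 TPM in the RAC1-positive libraries, with KRT5 the only 1 of 7 at 0 throughout. Within that list the adhesion genes EPCAM (43.8 ± 6.72 against 24.2 ± 2.10 TPM, SD, n = 3 lines each) and CDH1, which encodes E-cadherin (13.5 ± 4.13 against 3.98 ± 1.51 TPM), had every knockout line above every RAC1-positive line, as several serpins did. On line means neither passed (limma adjusted p = 0.15 and 0.156), and with a random block for the line both did (adjusted p = 0.0184, range over alternatives 0.0184 to 0.7, and 0.0117, range 0.0117 to 0.492). With that block 2.12% of all genes passed. The part of EPCAM and CDH1 in the serpin differences was not tested. Of the 6 epithelial markers tested, only these 2 had every knockout line higher, as did 12% of all genes. The lines of KRT7, KRT8, KRT18 and KRT19 overlapped, and KRT18 was lower on average in the knockout lines (129 ± 54.3 against 236 ± 124 TPM, SD, n = 3 lines each). Among 7 prostate luminal markers, KLK3 and TMPRSS2 were at 0 in every library, and the list summed to 28.6 to 39.3 TPM in the knockout libraries and 30.5 to 53.5 TPM in the RAC1-positive libraries. ALB, the defining hepatocyte marker, and PTPRC, the defining leukocyte marker, were also at 0 in every library, but not all markers of their lists were. The hepatocyte marker FGB averaged 42.3 ± 56.0 TPM over the knockout and 26.2 ± 15.5 TPM over the RAC1-positive lines (SD, n = 3 each), which overlapped. The leukocyte marker CD14 averaged 1.79 ± 1.28 and 0.440 ± 0.24 TPM, with every knockout line higher. CD14 passed the filter through the knockout lines alone. In these bulk samples, fewer cells of a type and less RNA per cell cannot be told apart.

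A serpin exposes a flexible loop that a protease cleaves, after which the serpin changes shape and traps the protease in a covalent complex. Clade A and clade E serpins are mostly secreted and act on proteases of blood and tissue, whereas clade B serpins lack a classical signal peptide and act largely inside cells. Some members, SERPINB5 among them, do not inhibit proteases by this mechanism. In epithelial cancers the family is known for its links to proteolysis at the cell surface, migration and protection from granule proteases of immune cells.

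The genes lie in 3 clusters and at 1 separate locus of GRCh38, by the GENCODE version 29 annotation, and all 9 are annotated as protein coding. SERPINB1 (chr6:2832332-2842006), SERPINB9 (chr6:2887266-2903280) and SERPINB6 (chr6:2948159-2972165) share 140 kb of 6p25, all on the minus strand. SERPINB5 (chr18:63476761-63505085), SERPINB2 (chr18:63871692-63903890) and SERPINB8 (chr18:63969925-64019779) lie on the plus strand within 543 kb of 18q21. SERPINA1 (chr14:94376747-94390693, minus strand) and SERPINA3 (chr14:94612377-94624055, plus strand) span 247 kb of 14q32. SERPINE2 (chr2:223975112-224039319) is on the minus strand of 2q36.

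SERPINA1 encodes alpha-1-antitrypsin, the secreted inhibitor of neutrophil elastase. Its level was 22.0 and 14.5 TPM in the 2 parental libraries, 9.46 and 11.1 TPM in sgNTC clone 1, and 8.35 and 10.4 TPM in sgNTC clone 2. The knockout libraries held 34.3 and 42.0 TPM in sgRAC1 clone 1, 36.9 and 37.5 TPM in clone 2, and 58.3 and 61.6 TPM in clone 3. All 6 knockout libraries were above all 6 RAC1-positive libraries, and clone 3 was the highest line. Over lines, the mean was 45.1 ± 12.9 TPM (SD, n = 3) for the knockout and 12.6 ± 4.87 TPM (SD, n = 3) for the RAC1-positive lines, a ratio of 3.57. On the scale of log2(TPM + 1), used for every difference below and understating the change of low genes, the knockout lines were higher by 1.79, with 1.72 in batch 1 and 1.87 in batch 2.

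SERPINE2 encodes protease nexin-1, a secreted inhibitor of thrombin and urokinase. It was low throughout, at 1.41 and 1.60 TPM in the parental libraries, 2.10 and 1.82 TPM in sgNTC clone 1, and 1.15 and 1.17 TPM in sgNTC clone 2. The knockout values were 4.21 and 3.32 TPM in sgRAC1 clone 1, 2.19 and 2.32 TPM in clone 2, and 3.59 and 4.20 TPM in clone 3. The libraries of the 2 genotypes did not overlap, although sgRAC1 clone 2, the lowest knockout line, lay close to sgNTC clone 1, the highest RAC1-positive line. The line means were 3.30 ± 0.91 TPM (SD, n = 3) and 1.54 ± 0.40 TPM (SD, n = 3), a log2 difference of 0.75, with 0.75 in batch 1 and 0.74 in batch 2. SERPINA3, which encodes the cathepsin G inhibitor alpha-1-antichymotrypsin and is the clade A neighbour of SERPINA1, was listed at 0 in each library.

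SERPINB1 encodes the leukocyte elastase inhibitor, which acts on elastase, cathepsin G and proteinase 3. The parental libraries held 55.1 and 42.0 TPM, sgNTC clone 1 43.4 and 35.7 TPM, and sgNTC clone 2 64.5 and 37.8 TPM. In the knockout lines it stood at 55.9 and 74.2 TPM in sgRAC1 clone 1, 39.6 and 69.5 TPM in clone 2, and 80.9 and 69.7 TPM in clone 3. The libraries overlapped, with or without replicate 1 of sgNTC clone 2: both parental libraries and replicate 1 of sgNTC clone 1 were also above replicate 1 of sgRAC1 clone 2. The line means were 65.0 ± 10.4 TPM and 46.4 ± 6.07 TPM (SD, n = 3 each), and the log2 difference of 0.47 was 0.07 in batch 1 and 0.87 in batch 2. Without replicate 1 of sgNTC clone 2 it was 0.60 overall and 0.20 in batch 1.

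SERPINB6 encodes an intracellular inhibitor of cathepsin G and trypsin-like proteases, and it varied least among the 7 genes. The RAC1-positive libraries lay between 20.7 and 26.0 TPM and the knockout libraries between 23.7 and 30.8 TPM, and the ranges overlapped. Its line means were 26.6 ± 2.52 TPM and 22.8 ± 0.99 TPM (SD, n = 3 each), a log2 difference of 0.21. Scaling to the upper quartile gave 0.36, but that scaling also moved the median difference of all genes from 0.02 to 0.13.

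SERPINB9 encodes the inhibitor of granzyme B, the cytotoxic protease of lymphocytes. It read 8.15 and 5.33 TPM in the parental line, 5.12 and 7.21 TPM in sgNTC clone 1, and 8.69 and 5.70 TPM in sgNTC clone 2. The knockout libraries read 6.65 and 11.8 TPM in sgRAC1 clone 1, 4.17 and 4.72 TPM in clone 2, and 8.64 and 6.17 TPM in clone 3. The genotypes overlapped, with sgRAC1 clone 1 the highest line and sgRAC1 clone 2 the lowest. The difference of the line means was 0.01, being -0.17 in batch 1 and 0.20 in batch 2, while its 6p25 neighbour SERPINB1 differed by 0.47. Without replicate 1 of sgNTC clone 2 the difference of SERPINB9 was 0.10, and -0.05 in batch 1.

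SERPINB5 encodes maspin, a serpin that does not inhibit proteases and is known as a suppressor of invasion in breast and prostate epithelium. Its level was 2.15 and 0.820 TPM in the parental libraries, 0.306 and 0.219 TPM in sgNTC clone 1, and 1.30 and 0.132 TPM in sgNTC clone 2. The knockout libraries held 1.27 and 2.28 TPM in sgRAC1 clone 1, 18.9 and 18.3 TPM in clone 2, and 30.5 and 36 TPM in clone 3. Clones 2 and 3 were far above every RAC1-positive library, whereas clone 1 overlapped with the parental line and with replicate 1, but not replicate 2, of sgNTC clone 2. The line means were 17.9 ± 15.8 TPM and 0.821 ± 0.62 TPM (SD, n = 3 each). Relative to the RAC1-positive mean, clone 1 differed by 0.69, clone 2 by 3.53 and clone 3 by 4.33 on the log2 scale, with a mean of 2.85 (2.41 in batch 1 and 3.29 in batch 2).

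SERPINB8 encodes an inhibitor of furin, the proprotein convertase. It was at 12.1 and 12.4 TPM in the parental line, 10.7 and 7.37 TPM in sgNTC clone 1, and 19.2 and 8.62 TPM in sgNTC clone 2. In the knockout lines the values were 19.8 and 16.5 TPM for sgRAC1 clone 1, 15.4 and 14.9 TPM for clone 2, and 14.1 and 17.0 TPM for clone 3. Replicate 1 of sgNTC clone 2 was the only RAC1-positive library inside the knockout range, and without it the libraries did not overlap. The line means were 16.3 ± 1.64 TPM and 11.7 ± 2.48 TPM (SD, n = 3 each), a log2 difference of 0.49 that was 0.25 in batch 1 and 0.74 in batch 2, and 0.67 overall and 0.48 in batch 1 without that library. SERPINB8 overlaps HMSD over 11850 bases on the same strand, but HMSD was above 0 in only 2 libraries and at most 0.42 TPM. SERPINB2, which lies between these genes and encodes the urokinase inhibitor plasminogen activator inhibitor 2, was listed at 0 in all libraries.

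**Figure D1:**
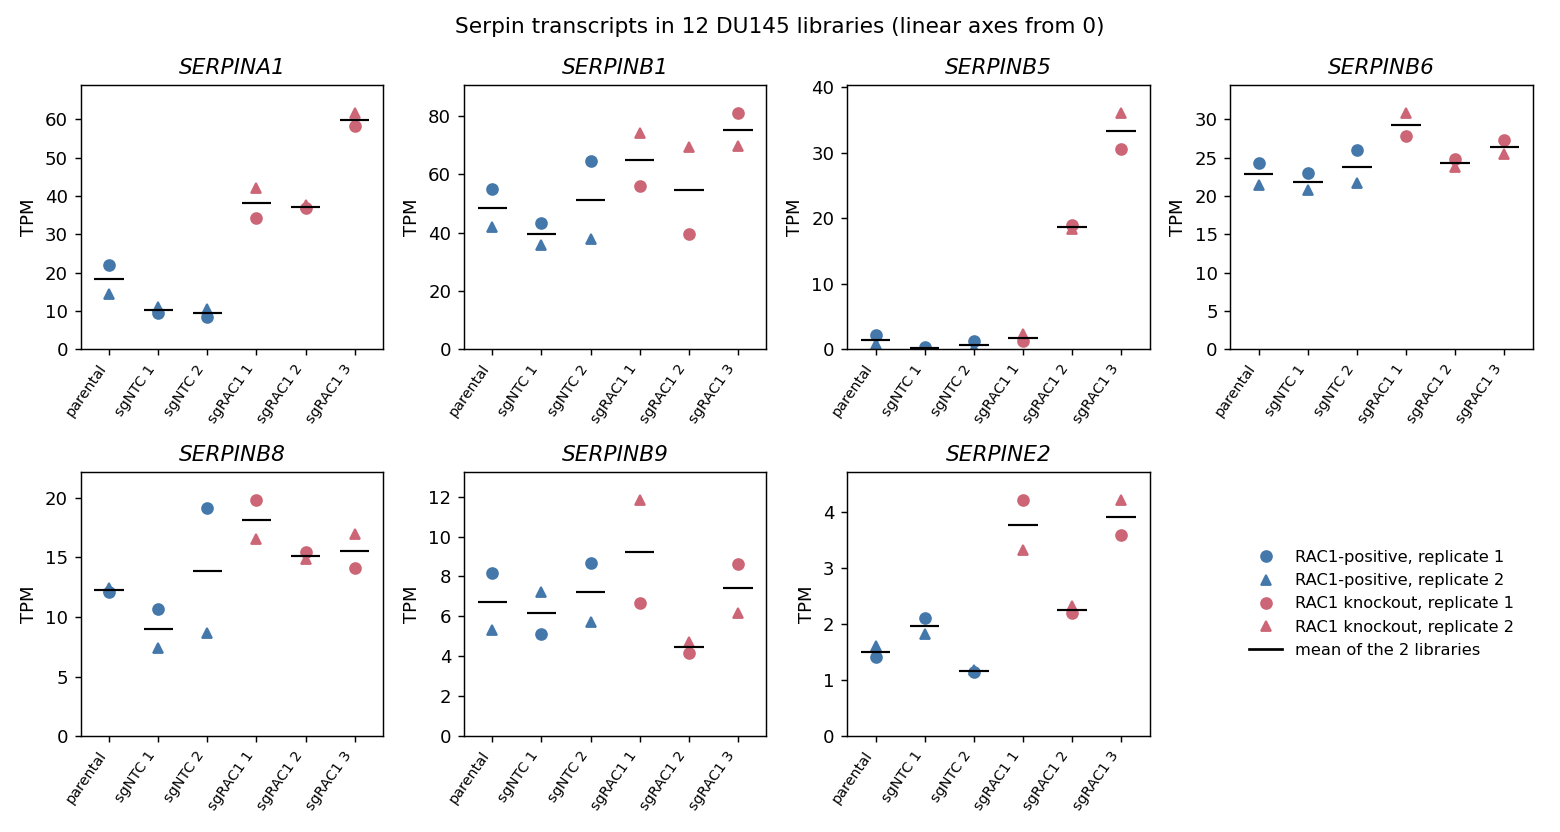
Level of each of the 7 detected serpin genes in TPM (vertical axes, linear from 0) in the 2 libraries of each of 6 DU145 lines (horizontal axes); bars mark the mean of the 2 libraries. SERPINA1 and SERPINE2 separate the genotypes library by library, and SERPINB5 is at 18.3 TPM or more in sgRAC1 clones 2 and 3 but at 1.27 and 2.28 TPM in sgRAC1 clone 1.

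Across the 7 genes, 6 had every knockout line above every RAC1-positive line, SERPINB9 being the exception, and 12% of the 17367 genes tested did so. Library by library, 2 of the 7 were apart, against 2.14% of all genes. Without replicate 1 of sgNTC clone 2 these counts were 6 and 3 of 7, against 13.7% and 3.51% of all genes. In the authors' deposited table, 5 of the 7 genes were called higher in the knockout (adjusted p under 0.05), namely SERPINA1, SERPINB1, SERPINB5, SERPINB8 and SERPINE2, and none lower, beside 5.68% of the 15140 genes it compares. The authors' deposited table gives log2 fold changes of 1.77 for SERPINA1, 0.53 for SERPINB1, 4.68 for SERPINB5, 0.60 for SERPINB8 and 1.01 for SERPINE2. It gives 0.22 for SERPINB6 and 0.09 for SERPINB9. Since these genes were chosen with this contrast already known, nothing is read from the counts.

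**Figure D2:**
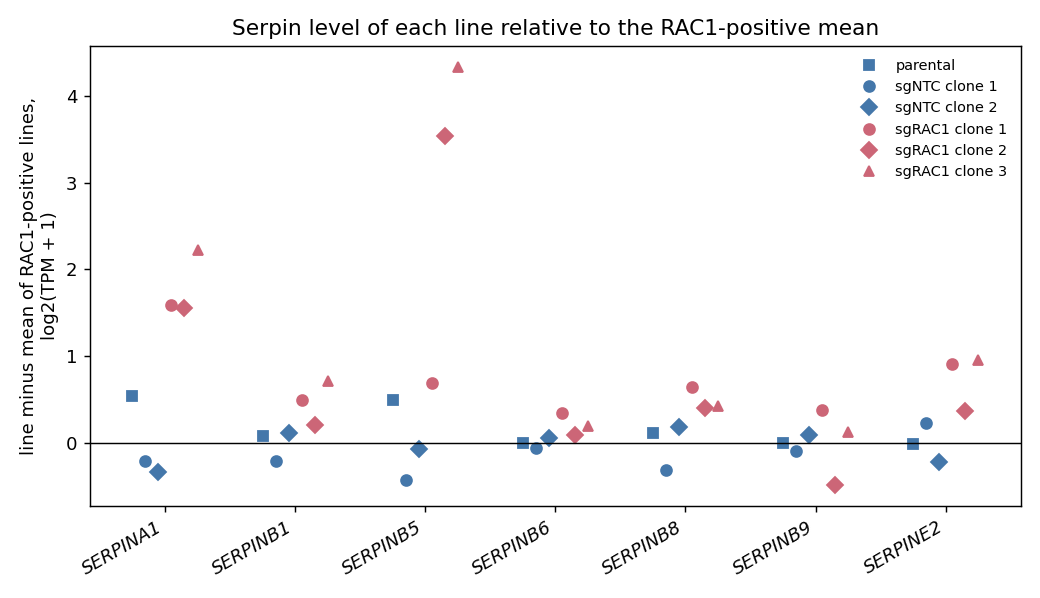
Level of each line minus the mean of the 3 RAC1-positive lines, in log2(TPM + 1) (vertical axis), for the 7 serpin genes (horizontal axis); each point is the mean of 2 libraries. The 3 knockout clones lie between 1.56 and 2.23 for SERPINA1 but between 0.69 and 4.33 for SERPINB5.

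The batches are compared in the plot of the genotype difference by batch. SERPINA1 and SERPINE2 had nearly the same difference in both, SERPINB1 and SERPINB8 were closer to 0 in batch 1, and SERPINB9 had opposite signs. Replicate 1 of sgNTC clone 2 is a batch 1 library, and without it the batch 1 difference was 1.47 for SERPINA1, 0.20 for SERPINB1, 0.48 for SERPINB8, -0.05 for SERPINB9 and 0.63 for SERPINE2. The change of the difference between batches was not significant for any of the 7 genes (limma, adjusted p = 0.912 to 0.999). The share of all genes that passed this test is not given here. Changes of 0.80 for SERPINB1 and 0.88 for SERPINB5 did not pass either, so equal differences in the batches cannot be read from it. Over all 6 lines, batch 2 against batch 1 gave no call among the 7 genes in limma with the line as a block, and no unadjusted p under 0.05, beside 0.0115% of all genes called and 8.18% with such a p. The largest such difference was that of SERPINB8, -0.26 ± 0.18 (SE, limma adjusted p = 0.748), higher in batch 2 in 2 of 6 lines. Without replicate 1 of sgNTC clone 2 it was -0.0968 (limma adjusted p = 0.946).

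**Figure D3:**
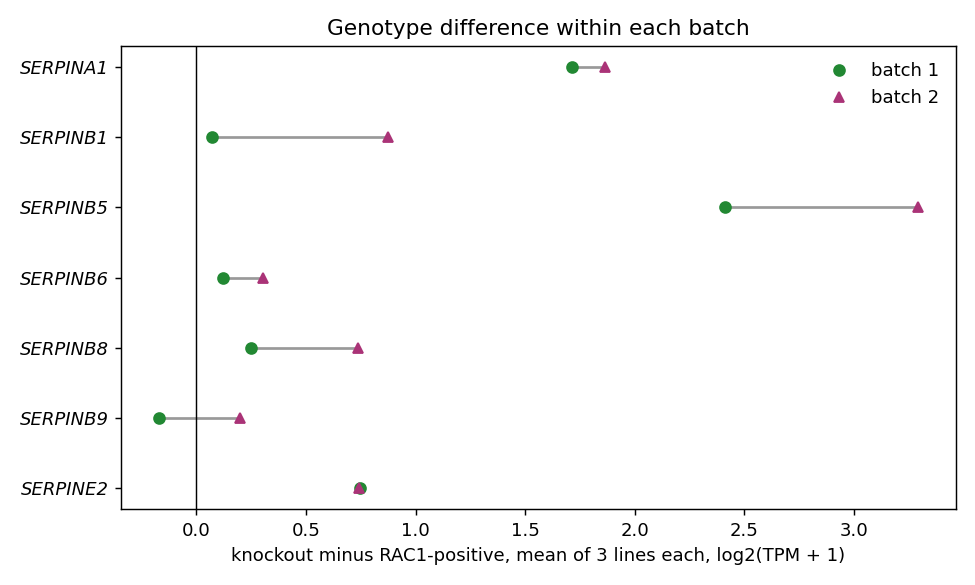
Mean of the 3 knockout lines minus mean of the 3 RAC1-positive lines in log2(TPM + 1) (horizontal axis) for each serpin gene (vertical axis), in batch 1 (circles) and batch 2 (triangles). SERPINB1 moves from 0.07 to 0.87 between the batches, and SERPINA1 from 1.72 to 1.87.

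The 3 knockout clones, clone 1 made with sgRAC1_1 and clones 2 and 3 with sgRAC1_2, were next compared with each other. Which values led to the choice of genes is not stated, so this test may not be independent of it, and SERPINB5 passed the filter on low values through the knockout lines alone, where clones 2 and 3 are high. SERPINB5 differed among them (limma F test, adjusted p = 0.0438), as did 0.0576% of all genes. With no filter the adjusted p was 0.0254, and with a filter of 5 TPM it was 0.16 (limma). Clone 3 was above clone 1 by 3.65 (95% interval 2.74 to 4.55, limma adjusted p = 0.0216). Clone 2 was above clone 1 by 2.85 (95% interval 1.94 to 3.75, limma adjusted p = 0.0995), which did not pass. Clones 2 and 3 differed by 0.80 (95% interval -0.10 to 1.70, limma adjusted p = 1). With the replicate block the F test had an adjusted p of 0.104, and it passed in 5 of 19 alternatives, with adjusted p from 0.00278 to 0.544. It did not pass (limma adjusted p from 0.0668 to 0.261) without either library of the parental line, of sgNTC clone 1 or of any knockout clone in turn. Without either library of sgNTC clone 2 it did.

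The other 6 genes did not pass among the knockout clones (limma F test, adjusted p = 1 for each). SERPINA1 had an unadjusted p of 0.0257, where 3.58% of all genes were under 0.05, with clone 3 above clone 1 by 0.64 (95% interval 0.13 to 1.15) and above clone 2 by 0.67 (95% interval 0.16 to 1.18). SERPINE2 was lower in clone 2 than in clone 1 by 0.54 on the same scale (clone 2 minus clone 1 -0.54, 95% interval -1.11 to 0.02). SERPINB9 differed between the same clones by -0.86 (95% interval -1.65 to -0.08). Clone 2 was the lowest knockout line for SERPINA1, SERPINB1, SERPINB6, SERPINB8, SERPINB9 and SERPINE2 but not for SERPINB5, where clone 1 was lowest.

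Among the 3 RAC1-positive lines none of the 7 genes passed (limma F test), beside 0.0115% of all genes, and 1 of the 7 had an unadjusted p under 0.05, against 5.75% of all genes. That gene was SERPINA1 (limma adjusted p = 0.753), which was higher in the parental line than in either sgNTC clone. SgNTC clone 1 differed from the parental line by -0.75 (95% interval -1.26 to -0.23) and sgNTC clone 2 by -0.87 (95% interval -1.38 to -0.36). SERPINB5 was likewise highest in the parental line, from which sgNTC clone 1 differed by -0.92 (95% interval -1.83 to -0.02) and sgNTC clone 2 by -0.57 (95% interval -1.47 to 0.33).

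TPM is scaled by transcript length, so levels can be set side by side. In the RAC1-positive lines the order of mean levels was SERPINB1, SERPINB6, SERPINA1, SERPINB8, SERPINB9, SERPINE2 and SERPINB5. The ranges of the line means of SERPINA1 (9.39 to 18.2 TPM) and SERPINB8 (9.02 to 13.9 TPM) overlapped, as did those of SERPINE2 (1.16 to 1.96 TPM) and SERPINB5 (0.262 to 1.48 TPM). In the knockout lines the order was SERPINB1, SERPINA1, SERPINB6, SERPINB5, SERPINB8, SERPINB9 and SERPINE2. There SERPINB1 (54.5 to 75.3 TPM) and SERPINA1 (37.2 to 60 TPM) overlapped, and SERPINB5, at 1.78 to 33.3 TPM, overlapped with every gene from SERPINB6 down. The genes summed to 181 ± 35.3 TPM in the knockout lines and 103 ± 12 TPM where RAC1 was intact (SD, n = 3 each), the latter 95.4 ± 14.2 TPM without replicate 1 of sgNTC clone 2. SERPINA1 made up 21.9% to 28.0% of that sum in the knockout libraries and 6.47% to 17.5% in the RAC1-positive libraries, or 10.1% to 17.5% without that library.

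Promoter sequence is shown for the 18q21 genes, which lie together but differ in level from 0 TPM for SERPINB2 to 36 TPM for SERPINB5, and for SERPINA1, whose libraries were apart. RefSeq windows (GRCh38.p14) were found for all 9 genes, 14 windows of 300 bases from 250 before to 50 after a transcript start. The 250 bases before the start are printed 5′ to 3′ on the gene's strand. Capitals mark the AP-1 letters TGANTCA and the STAT letters TTCNNNGAA, searched on both strands.
SERPINB5, chr18:63476708-63476957, plus strand: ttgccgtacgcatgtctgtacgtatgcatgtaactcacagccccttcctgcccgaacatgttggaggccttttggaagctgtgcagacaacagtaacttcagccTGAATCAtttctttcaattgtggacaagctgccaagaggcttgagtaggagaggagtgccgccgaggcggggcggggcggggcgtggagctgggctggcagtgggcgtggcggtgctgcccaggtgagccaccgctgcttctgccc
SERPINB8, chr18:63969831-63970080, plus strand: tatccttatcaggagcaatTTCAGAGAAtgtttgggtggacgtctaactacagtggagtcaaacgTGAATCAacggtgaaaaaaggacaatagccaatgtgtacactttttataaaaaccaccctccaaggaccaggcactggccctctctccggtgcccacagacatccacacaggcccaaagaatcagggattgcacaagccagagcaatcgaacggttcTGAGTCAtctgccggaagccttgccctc
SERPINB2, chr18:63887455-63887704, plus strand: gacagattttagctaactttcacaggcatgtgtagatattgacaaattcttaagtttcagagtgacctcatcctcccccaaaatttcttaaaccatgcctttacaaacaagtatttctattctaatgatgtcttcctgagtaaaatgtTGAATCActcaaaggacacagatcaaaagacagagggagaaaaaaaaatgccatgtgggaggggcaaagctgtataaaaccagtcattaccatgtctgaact
SERPINA1 window 1, chr14:94390636-94390885, minus strand: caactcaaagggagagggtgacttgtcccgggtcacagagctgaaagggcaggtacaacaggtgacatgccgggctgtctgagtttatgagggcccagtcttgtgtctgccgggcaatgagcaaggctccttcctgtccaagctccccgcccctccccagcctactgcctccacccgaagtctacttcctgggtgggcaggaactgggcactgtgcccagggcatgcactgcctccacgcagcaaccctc
SERPINA1 window 2, chr14:94388603-94388852, minus strand: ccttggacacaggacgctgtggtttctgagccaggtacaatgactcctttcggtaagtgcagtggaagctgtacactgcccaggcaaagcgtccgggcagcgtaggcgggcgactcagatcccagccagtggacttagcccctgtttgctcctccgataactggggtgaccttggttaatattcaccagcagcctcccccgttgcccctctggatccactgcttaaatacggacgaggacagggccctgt

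AP-1 letters were present in 3 of the 14 windows, those of SERPINB5 (first base at -146 from the start), SERPINB8 (-185 and -28) and SERPINB2 (-102), which are all 3 of the 18q21 genes. They were present in 7.71% of the 35116 windows in the RefSeq table. SERPINB5, SERPINB8 (at -185) and SERPINB2 hold the same 7 letters, TGAATCA, although SERPINB2 was listed at 0 in every library. STAT letters were present in the windows of SERPINB8 (-231) and SERPINB1 (-208), and in 7.66% of all windows. NF-kB letters GGANTTTCC (1.64% of all windows) and ISRE letters TTCNNTTTC (8.11%), the interferon response element, were in none of the 14. The letters of the 4 motifs did not overlap in these windows, and a match is a description of the sequence only.

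**Figure D4:**
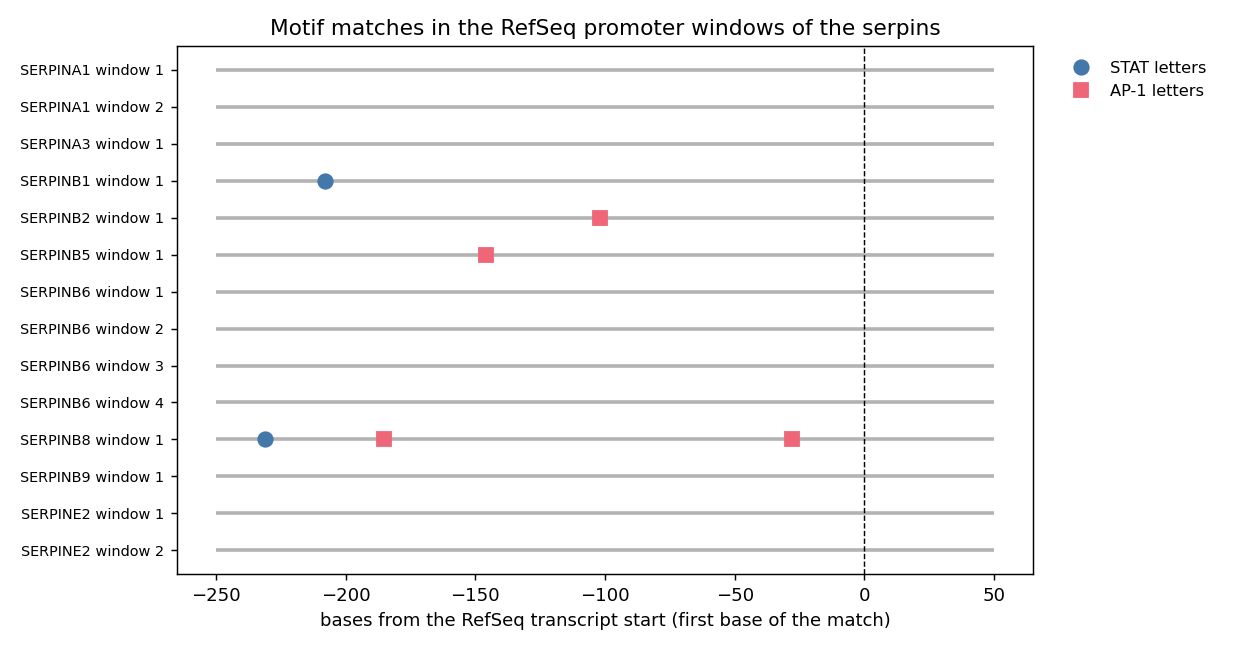
Position of AP-1 letters (squares) and STAT letters (circles) in the 14 RefSeq promoter windows of the 9 serpin genes, in bases from the transcript start (horizontal axis, dashed line at 0). The AP-1 letters are in the windows of SERPINB2, SERPINB5 and SERPINB8.

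Of the 27 serpin genes outside the 9, 5 reached a mean of 1 TPM with or without RAC1, 13 were listed at 0 in every library, and 9 were above 0 in some library but below that filter. None of the 5 passed between the genotypes in limma on line means (0.00576% of all genes did), and 1 had an unadjusted p under 0.05, as did 13% of all genes. None passed when the line was a random block (2.12% of all genes) or in the authors' deposited table.

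SERPINI1, which encodes neuroserpin, averaged 13.6 ± 2.71 TPM over the knockout and 10.2 ± 1.80 TPM over the RAC1-positive lines (SD, n = 3 each; limma adjusted p = 0.466). SERPIND1, which encodes heparin cofactor II, was at 2.13 ± 0.83 and 0.639 ± 0.52 TPM (limma adjusted p = 0.335), and each knockout line was above each RAC1-positive line. It and SERPING1 passed the filter on low values through the knockout lines alone. SERPING1, which encodes the C1 inhibitor, was at 2.34 ± 1.87 and 0.650 ± 0.46 TPM (limma adjusted p = 0.414). SERPINH1, the collagen chaperone, was at 6.64 ± 0.72 and 5.89 ± 0.84 TPM (limma adjusted p = 0.766). SERPINB7, which lies inside the 18q21 interval between SERPINB5 and SERPINB2, was at 6.56 ± 3.84 and 7.23 ± 3.64 TPM (limma adjusted p = 0.933).

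SERPINB7 had 2.25 and 2.27 TPM in sgRAC1 clone 1, 9.34 and 6.22 TPM in clone 2, and 10.9 and 8.36 TPM in clone 3. Clone 1 was thus its lowest knockout line, as for SERPINB5, but the F test among the clones did not pass (limma adjusted p = 1). In the RAC1-positive libraries SERPINB7 ranged from 2.04 to 15.5 TPM, the highest being replicate 1 of sgNTC clone 2.

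No gene of the related lists passed between the genotypes in limma on line means, and only 0.00576% of all genes did. Over all genes tested the median difference was 0.02, with an unadjusted p under 0.05 for 13%. The authors' deposited table called 3 of 10 receptors and cofactors, 3 of 16 other inhibitors and 3 of 5 acute phase genes (LCN2, FGA and FGG) higher. It called 6 of 26 IL-6 and NF-kB genes higher and 2 lower, 1 of 9 genes higher around 14q32 and 1 of 5 around SERPINE2. Target proteases and the genes around 6p25 and 18q21 had no call. Of 15140 genes it called 860 higher and 614 lower. A gene that passed the filter on low values through the knockout lines alone had to be higher there, so the medians below are over genes that reached 1 TPM in both genotypes. Of 27 target proteases of serpins, 5 were tested, with a median difference of 0.26 and an unadjusted p under 0.05 for 2. HTRA1, a secreted serine protease, differed by 0.68 (limma adjusted p = 0.232), and CTSL, which encodes cathepsin L, by 0.24 (limma adjusted p = 0.324). Of 13 receptors and cofactors, 10 were tested, 2 of them with an unadjusted p under 0.05, and the median of the 8 that reached 1 TPM in both genotypes was 0.14. They include SDC1, a heparan sulfate proteoglycan, at 0.64 (limma adjusted p = 0.21).

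Of 29 other protease inhibitors, 15 were tested, 5 of them with an unadjusted p under 0.05 against 13% of all genes, and the median of the 14 that reached 1 TPM in both genotypes was 0.17. SLPI, which like SERPINA1 inhibits neutrophil elastase, averaged 25.5 ± 11 TPM over the knockout and 3.11 ± 0.96 TPM over the RAC1-positive lines (SD, n = 3 each; limma adjusted p = 0.126). SPINT1, an inhibitor of matriptase and hepatocyte growth factor activator, stood at 3.44 ± 0.76 and 0.582 ± 0.38 TPM (limma adjusted p = 0.143) and passed the filter through the knockout lines alone. When the line was a random block, SLPI (adjusted p = 0.0119, range over alternatives 0.0119 to 0.404) and SPINT1 (adjusted p = 0.00454, range 0.00454 to 0.581) passed, as did SDC1 (adjusted p = 0.0406, range 0.0381 to 0.704). With that block 2.12% of all genes passed.

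SERPINA1 and SERPINA3 are acute phase genes of the liver. Of 20 other acute phase genes, 5 were tested, and 3 of these (LCN2, FGA and FGG) passed the filter through the knockout lines alone, which fixes their direction. The median of the other 2 was -0.03. LCN2, which encodes lipocalin 2, differed by 1.75 (limma adjusted p = 0.199, and 0.0141 with the line as a random block, range 0.0141 to 0.598). FGA, which encodes the fibrinogen alpha chain, differed by 1.29 (limma adjusted p = 0.424). It was at 2.44 ± 3.36 TPM over the knockout and 0.00907 ± 0.016 TPM over the RAC1-positive lines (SD, n = 3 each). FGB, a more abundant fibrinogen chain, differed by -0.20 (limma adjusted p = 0.953), and its lines overlapped. Of 30 genes of the IL-6 and NF-kB pathways, which drive acute phase genes, 26 were tested, 7 of them with an unadjusted p under 0.05 against 13% of all genes, and the median of the 25 that reached 1 TPM in both genotypes was 0.21. OSMR, the oncostatin M receptor, differed by 0.59 (limma adjusted p = 0.199, and 0.0308 with the line as a random block, range 0.0276 to 0.664), and CXCL2, a neutrophil chemokine, by -0.78 (limma adjusted p = 0.224). ICAM1, an adhesion molecule named after its values were seen, was the other gene of the list to pass with that block (0.80, adjusted p = 0.0429, range 0.0421 to 0.695, and 0.227 on line means). The random block gave a call for 2.12% of all genes.

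Genes that flank the serpins or lie between them were compared in the same way. Around 6p25, 10 of 14 were tested with a median difference of 0.09, NQO2 at -0.17 (limma adjusted p = 0.609) and EXOC2 at 0.10 (limma adjusted p = 0.691). NQO2 lies 16 kb from the 6p25 serpins, but EXOC2 lies 2139 kb away. Around 18q21, 7 of 17 were tested with a median of 0.00, VPS4B at 0.15 (limma adjusted p = 0.533) and PIGN at -0.06 (limma adjusted p = 0.895). PIGN lies 1290 kb from the 18q21 serpins. VPS4B lies 54 kb from them and averaged 48.5 ± 1.54 TPM over the knockout and 43.9 ± 0.93 TPM over the RAC1-positive lines (SD, n = 3 each). Around 14q32, 8 of 17 were tested, 6 of them in both genotypes with a median of 0.03, IFI27L2 at 1.04 (limma adjusted p = 0.37) and PPP4R4 at -0.69 (limma adjusted p = 0.41). Around SERPINE2, 5 of 9 were tested with a median of 0.07, AP1S3 at 0.48 (limma adjusted p = 0.269) and CUL3 at 0.27 (limma adjusted p = 0.614).

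The genes whose log2(TPM + 1) followed each serpin most closely over the 12 libraries are given as a description, since the libraries share lines, batches and the genotype split. For SERPINA1 they were C1orf116 (Pearson r = 0.99) and SPINT1 (r = 0.982), both below 5 TPM in every library. For SERPINB5 they were RP11-443P15.2 (r = 0.979) and VPS11 (r = 0.954). SERPINB1 was followed by ARPIN (r = 0.94) and F11R (r = 0.929), and SERPINB6 by MLLT3 (r = 0.937) and GCLC (r = 0.93). SERPINB8 was followed by STAMBP (r = 0.962) and CD46 (r = 0.953), and SERPINE2 by ALDH7A1 (r = 0.955) and ACO1 (r = 0.951). SERPINB9 had lower values, with C9orf9 (r = 0.843) and KIAA0930 (r = 0.837). Between the serpins themselves r was highest for SERPINA1 with SERPINB5 (0.84) and SERPINE2 (0.82), and lowest for SERPINB5 with SERPINB9 (-0.14).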

How the data were processed

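RNA of 12 DU145 libraries (6 lines, 2 libraries each) was extracted with TRIzol and Zymo columns, reverse transcribed with SMARTScribe and tagmented, per the labels' protocols. Per the submitters' processing notes, bcl2fastq, STAR 2.6.1d, DESeq2 and GRCh38 were used; the counting tool, annotation and strand setting remain not given in the sources used here. Deposited values are TPM per gene and library, as the authors made them. The table also holds their own comparison, in which the authors give log2 fold changes with p-values.

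Here, log2(TPM + 1) was tested with limma 3.58.1 in R 4.3.3 (trend, Benjamini-Hochberg adjustment, 0.05) on 17367 genes whose mean reached 1 TPM with or without RAC1. Genotypes were compared on line means (3 against 3). Lines within a genotype and batches were compared on libraries, and the tests were tested on simulated data. The labels make replicate number a batch; the deviations of 15 pairs of same-numbered libraries correlated at -0.126 to 0.296, 2 of them above 0.1. Depth is unknown, so no counting intervals are given.

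Members and lists were chosen with earlier results of these data known. Named genes were the members, RAC1, other serpins past the filter, from each list any gene called or else the 2 of smallest p, and the 2 most correlated genes per member; a few genes that this rule or the lists name are not reported here. Fibroblast, endothelial and other marker lists served as checks: fibroblast markers summed to at most 0.751 TPM and endothelial markers to at most 0.791 TPM in any library, leukocyte markers to 0.726 to 4.23 TPM in the knockout and 0 to 1.08 TPM in the RAC1-positive libraries, and hepatocyte markers to 3.67 to 117 TPM and 11.3 to 46.1 TPM. Alternatives were other scalings, filters, pseudocounts (0.1 and 5), blocks, batches, and leaving out each library or line. Promoter windows came from RefSeq.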

Additional observations from a re-analysis of the deposited data

Results flagged for a closer look

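SERPINB5 was the gene whose level differed between lines of 1 genotype. Its F test among the 3 knockout clones gave a limma adjusted p of 0.0438. It held 1.27 and 2.28 TPM in sgRAC1 clone 1 against 18.3 to 36 TPM in clones 2 and 3. Clone 1 was made with sgRAC1_1 and the other clones with sgRAC1_2, so guide and clone cannot be told apart. SERPINB5 passed the filter on low values through the knockout lines alone. With a filter of 5 TPM the limma adjusted p was 0.16. Which values led to the choice of genes is not stated, so the test is not known to be independent of it. In the 14 sets of 6 libraries examined (7 genes, 2 genotypes), no library passed a rule for 1 extreme value in a set. That rule cannot flag a line whose 2 libraries are both extreme, as those of sgRAC1 clone 1 were for SERPINB5.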

How the results depend on the processing

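The count of serpin genes that differed among the knockout clones, 1 (SERPINB5), was 0 with upper quartile scaling (adjusted p = 0.0582), with a filter of 5 TPM (adjusted p = 0.16, limma), with a pseudocount of 0.1 (adjusted p = 0.544) and with the replicate block (adjusted p = 0.104). Leaving out 1 library at a time gave 0 to 1. The cause was not tested. The counts among the RAC1-positive lines, between the batches and for the other serpins between genotypes stayed at 0 in every alternative run, the replicate block included where it could be run. The batch contrast takes no replicate block, since the batch is what it compares.

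The genotype difference of SERPINA1, SERPINB1, SERPINB5, SERPINB6, SERPINB8 and SERPINE2 was above 0 in every alternative run, while that of SERPINB9 was above 0 in 18 of 28. SERPINE2 moved to 1.04 with a pseudocount of 0.1 and to 0.34 with a pseudocount of 5. Directions that turned belonged to genes that did not pass in any alternative. SERPINB7 gave 0.023 with upper quartile scaling and 0.0331 in batch 2, and -0.457 to 0.391 when a library or line was left out. Without replicate 1 of sgNTC clone 2 it gave 0.0446. SERPINH1 gave -0.026 to 0.28 when a library or line was left out. PIGN gave 0.0868 with upper quartile scaling, 0.2295 in batch 2 and -0.19 to 0.079 when a library or line was left out, and EXOC2 gave -0.104 in batch 1.

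The number of clones limits the genotype contrast, and TPM without counts hides the depth behind low genes such as SERPINB5 and SERPINE2. The files give genes, so isoforms were not analysed here.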
